A study of Caenorhabditis elegans with 18 samples.

Results

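The comparison of alg-1 mutant worms with wild type worms rests on 6 small RNA libraries, 3 per genotype, chosen by their titles out of the 18 libraries and 6 genotypes of the study. The wild type is the N2 (Bristol) strain of Caenorhabditis elegans, and the mutant carries alg-1(gk214) on the X chromosome with no other listed allele. The third genotype used here for reference carries alg-2(ok304) on chromosome II, also with 3 libraries. All were young adults grown at 25 °C, and each library was made from a pellet of many animals, so cell types and individuals are mixed. The study profiled miRNAs in worms with and without alg-1 and the peptidase gene dpf-3, and none of these 3 genotypes lists a dpf-3 allele. MiRNA counts do not measure the alg-1 transcript, and so do not test the genotype labels.

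MiRNAs are short RNAs that guide Argonaute proteins to matching sites in messenger RNAs, mainly through the seed near their 5′ end. In C. elegans, ALG-1 and ALG-2 are the main Argonautes that carry miRNAs in the body, and they are closely related and partly redundant. MiRNAs are generally stable while bound by an Argonaute. Loss of alg-1 is known for defects in developmental timing, a process run by the let-7 and lin-4 families, while loss of both genes stops embryonic development.

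Depth lay between 11.1 and 17.5 M counts (M, 1000000 counts) over the 6 libraries, with means of 16.9 M ± 0.843 in wild type and 12.8 M ± 1.70 in alg-1 (SD, n = 3). Of 175 miRNAs, 139 passed the low-count filter and were tested. Libraries of the same genotype correlated at 0.997 to 0.999 across miRNAs on the log2 scale, and libraries of different genotypes at 0.909 to 0.920. Levels are given as CPM, counts per 1000000 scaled by TMM factors, which compare a miRNA between libraries. They compare different miRNAs less well, because small RNA libraries favour some sequences over others. All values are relative to the other miRNAs of a library.

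Most of the profile differed between the genotypes. The quasi-likelihood test of edgeR, with p-values adjusted by Benjamini and Hochberg's method and a threshold of 0.05, called 117 of 139 miRNAs, or 84.2%. Of these, 59 were higher in alg-1 (42.4% of those tested) and 58 were lower (41.7%). For 116 of the 139 (83.5%), all alg-1 libraries lay on the same side of all wild type libraries. At least 2-fold rises numbered 38 (27.3%) and at least 2-fold falls 35 (25.2%). With TMM factors 23 miRNAs fell and 9 rose by at least 4-fold, and 11 fell and 1 rose by at least 16-fold. On this scale the falls reached further than the rises. Such fold counts depend on the scaling, and they were not recounted with the upper quartile factors below. The median log2 change over all tested miRNAs was -0.08. With upper quartile factors the median moved up by 1.16, the calls became 94 higher and 25 lower, and 24 of the 117 called miRNAs turned sign. Such factors rescale whole libraries and so shift all log2 changes nearly alike. That all 24 stayed on their side of the shifted median follows from this, and cannot show which scaling is right.

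**Figure D1:**
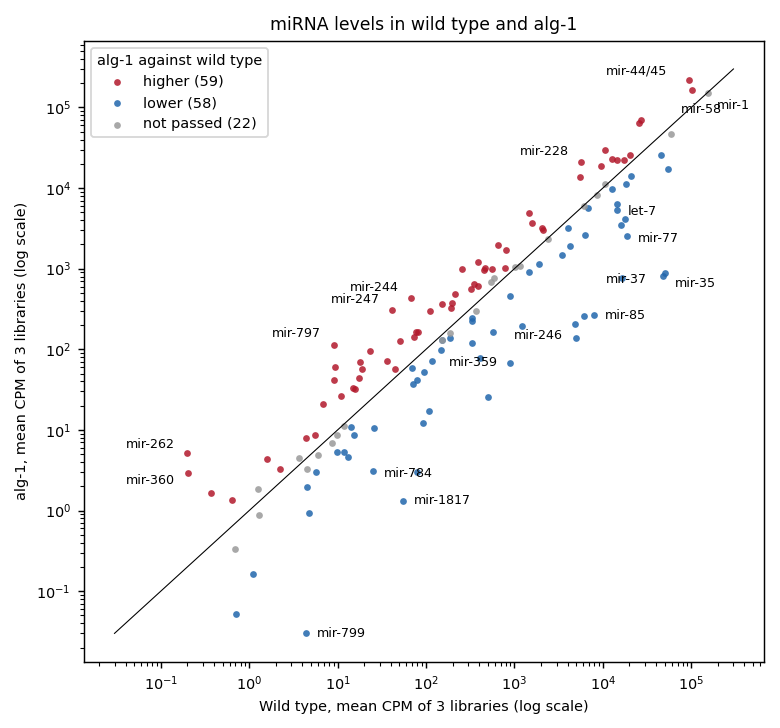
Mean level of each of the 139 tested miRNAs in wild type (horizontal axis) and alg-1 (vertical axis), in TMM-scaled CPM on log scales, 3 libraries each, coloured by the edgeR call. The line marks equal levels, and the miRNAs farthest from it lie below it, among them mir-799, mir-37, mir-35, mir-1817 and mir-85.

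Among the deepest falls were those of the mir-35 family, a set of oocyte and early embryo miRNAs without which embryos die. mir-35 stood at 45337, 57406 and 50098 CPM in the wild type libraries and at 907, 937 and 809 CPM in the alg-1 libraries. Every alg-1 library lay far below every wild type library, a 57.6-fold difference of means and a log2 change of -5.85 (SE 0.32, adjusted p = 1.1e-10). mir-37 went from 48340 ± 3544 to 812 ± 63.4 CPM (SD, n = 3), mir-39 from 16260 ± 1570 to 768 ± 49.4 CPM and mir-36 from 6069 ± 311 to 260 ± 21.5 CPM. All 4 were lower in every alg-1 library than in any wild type library, and 83.5% of all tested miRNAs did not overlap between the groups.

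Of the 8 family members 7 fell and none rose (mir-42 was called higher with upper quartile factors), where 41.7% of all tested miRNAs fell. The family median was -4.63 against -0.08 for all tested miRNAs. mir-38 fell from 507 ± 11.4 to 25.5 ± 1.07 CPM and mir-40 from 5031 ± 1499 to 138 ± 25.7 CPM (SD, n = 3). mir-41, the least abundant member, had a log2 change of -4.71 (SE 0.40). The genes of mir-35 to mir-41 lie side by side. mir-42, whose gene lies apart from these next to mir-43 and mir-44, was at 456, 684 and 643 CPM in wild type and at 843, 767 and 667 CPM in alg-1. Its libraries overlapped, and its log2 change of 0.35 (SE 0.39) did not pass. The family as a whole took 12.6% ± 0.916 of the counts in wild type and 0.339% ± 0.00889 in alg-1. The exact two-sided permutation p was 0.1, the smallest that 3 against 3 allows. Fewer oocytes and embryos and less of these miRNAs per cell cannot be told apart in whole worms.

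Outside this family, a set of miRNAs of other origins fell by similar factors. mir-85 stood at 7185, 8664 and 8118 CPM in wild type and at 275, 271 and 245 CPM in alg-1. The groups were far apart, with a 30.3-fold difference of means and a log2 change of -4.92 (SE 0.14, adjusted p = 1.4e-15). mir-246, whose level in adults has been tied to lifespan, was at 5216, 4736 and 4547 CPM in wild type and at 215, 201 and 199 CPM in alg-1. That is a log2 change of -4.56 (SE 0.18).

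Large falls were also seen in less abundant miRNAs, some of them smaller than those of mir-85 and mir-246. mir-1817 went from 44.6, 59.4 and 61.9 CPM to 1.10, 1.36 and 1.54 CPM, a log2 change of -5.37 (SE 0.23). mir-359 went from 972, 889 and 828 CPM to 78.9, 69.8 and 55.6 CPM (-3.72, SE 0.20), and mir-784 from 22.9, 27.0 and 25.0 CPM to 3.54, 2.63 and 3.08 CPM (-3.01, SE 0.15). In each of these the highest alg-1 library was below the lowest wild type library. With the 7 members of the mir-35 family, these 5 miRNAs make up the 12 largest called falls of at least 10 CPM in either genotype. Only miRNAs without overlap between the groups were eligible (83.5% of all tested), so their separation was set by the choice.

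Some further falls were picked out after their values were seen. mir-77, the most abundant of them, was at 16620, 20235 and 19980 CPM in wild type and at 2974, 2562 and 2033 CPM in alg-1 (-2.91, SE 0.19). mir-240 fell from 1228 ± 269 to 195 ± 4.43 CPM, and its neighbour mir-786, needed for the rhythm of defecation, from 107 ± 4.35 to 17.4 ± 2.13 CPM (SD, n = 3). mir-799 had 78, 66 and 79 counts in the wild type libraries and 0, 0 and 1 in the alg-1 libraries. The ratio of its levels was 158, with a 95% interval of 28.0 to 6258 that covers counting error only.

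The largest rises were in miRNAs of low or middle abundance. mir-797 was at 11.4, 6.41 and 9.22 CPM in wild type and at 102, 120 and 120 CPM in alg-1. Its lowest alg-1 library was several times its highest wild type library, and the log2 change was 3.66 (SE 0.35, adjusted p = 7.6e-08). mir-247, its neighbour in the genome, went from 48.7, 37.4 and 37.3 CPM to 313, 321 and 283 CPM (2.89, SE 0.32). mir-244 went from 73.7, 63.9 and 65.5 CPM to 389, 478 and 439 CPM (2.68, SE 0.19), and mir-251 from 9.41 ± 2.60 to 59.6 ± 2.76 CPM (SD, n = 3; 2.66, SE 0.20). All 4 sets of alg-1 libraries lay wholly above those of wild type. The choice of the 12 largest rises required this, and 83.5% of all tested miRNAs did not overlap.

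The other rises among the 12 largest were mir-792, mir-791, mir-83, mir-43, mir-228, mir-53, mir-230 and mir-789, with log2 changes from 2.22 down to 1.61. mir-83, a relative of the miR-29 family that helps to steady the migration of gonad cells, stood at 238, 256 and 279 CPM in wild type and at 1012, 994 and 981 CPM in alg-1. Its alg-1 libraries were nearly equal to each other, and its log2 change was 1.95 (SE 0.10). mir-53 rose from 1448 ± 208 to 4837 ± 246 CPM (SD, n = 3) and mir-230 from 387 ± 68.1 to 1224 ± 208 CPM.

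A pair of miRNAs that were almost missing from wild type, mir-262 and mir-360, were chosen after their values were seen. mir-262 had 3, 4 and 3 counts in wild type and 68, 61 and 53 in alg-1, and mir-360 had 3, 6 and 1 counts against 36, 33 and 34. At equal depth these are ratios of 25.7 and 14.6. Even in alg-1 their levels, 5.11 ± 0.282 and 2.90 ± 0.153 CPM (SD, n = 3), were low.

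**Figure D2:**
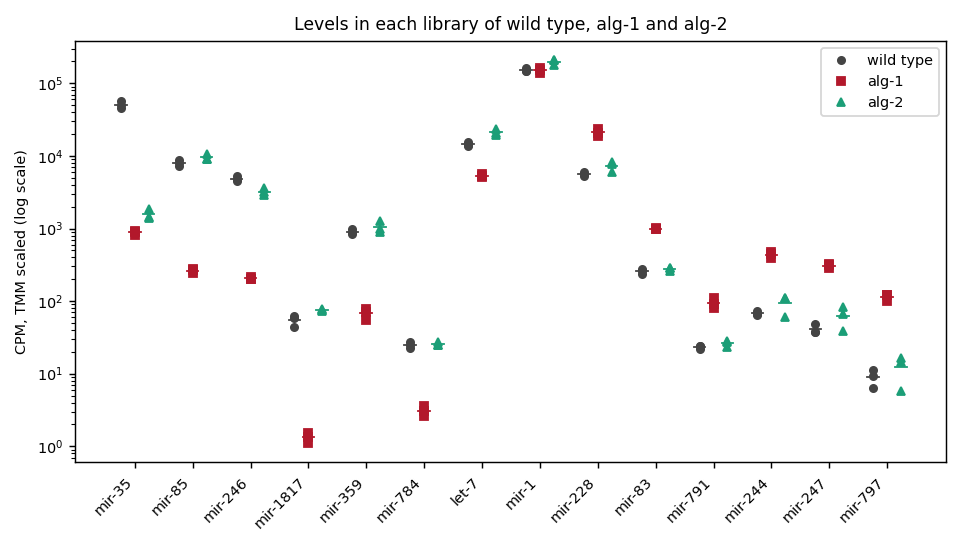
TMM-scaled CPM (log scale) of 14 miRNAs in each library of wild type, alg-1 and alg-2, with a bar at the mean of 3 libraries. The alg-1 libraries stand apart from both other genotypes for all of the miRNAs drawn except mir-1, and only mir-35 is far below wild type in alg-2 too.

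The most abundant miRNAs changed places. In wild type the leading miRNA was mir-1, a muscle miRNA that tunes signalling at the neuromuscular junction, with 15.1% ± 1.09 of the counts (SD, n = 3). In alg-1 the leading entry was mir-44/45, a pair with identical values in every library that was summed, with 20.3% ± 0.482 against 9.34% ± 0.5001 in wild type. mir-58, a relative of the fly bantam miRNA, kept its rank of 2 and went from 100312 to 105154 CPM in wild type to between 156736 and 174361 CPM in alg-1, a log2 change of 0.69 (SE 0.10). mir-1 stood at 162243, 149476 and 146481 CPM in wild type and at 162300, 153218 and 137165 CPM in alg-1. Its libraries overlapped and its log2 change of -0.02 (SE 0.10) did not pass, and it turned positive with several scalings.

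Of the 10 most abundant miRNAs of wild type, 7 were among the 10 most abundant of alg-1. Those that left were mir-35, mir-37 and mir-82, which went from rank 5 to rank 15. Those that entered were mir-90, mir-48 and mir-51, with mir-90 going from 10688 ± 1274 to 29557 ± 1235 CPM (SD, n = 3) and from rank 24 to rank 7. The profile became more concentrated. The 3 leading miRNAs held 34.6% ± 1.78 of the counts in wild type and 49.6% ± 0.376 in alg-1, and the 10 leading ones held 65.4% ± 1.27 and 76.2% ± 0.495.

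mir-71, which promotes long life in worms without a germline, was at 61337, 59043 and 56779 CPM in wild type and at 50621, 47288 and 40984 CPM in alg-1. The groups did not overlap, but the log2 change of -0.35 (SE 0.22) did not pass, with an adjusted p of 0.153. Fitted on the 6 libraries alone it was -0.43 (SE 0.10) with an adjusted p of 5.6e-05. With all libraries and the filter at 10 CPM it was called lower too (-0.52, adjusted p = 0.029), and with upper quartile factors it was called higher (0.81, adjusted p = 0.00091).

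**Figure D3:**
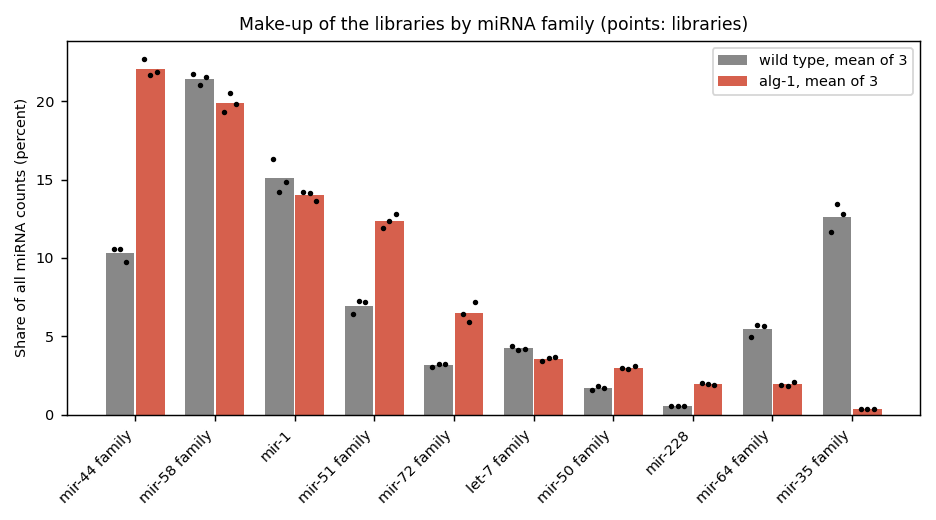
Share of all miRNA counts, in percent, taken by 8 families and by mir-1 and mir-228 in wild type and alg-1, with bars at the mean of 3 libraries and a point for each library. The mir-44, mir-51 and mir-72 families took larger shares in alg-1 in every library, and the mir-35 and mir-64 families smaller ones.

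The miRNAs that time development were divided. let-7, which drives the change from larva to adult, stood at 13626, 15568 and 14082 CPM in wild type and at 5343, 5607 and 5162 CPM in alg-1. The highest alg-1 library had well below the level of the lowest wild type library, and the log2 change was -1.43 (SE 0.11, adjusted p = 1.7e-09). lin-4, which acts earlier by repressing lin-14, moved the other way, from 1995, 2129 and 2115 CPM to 3166, 2652 and 3156 CPM (0.52, SE 0.09). mir-237, the other member of the lin-4 family, fell from 3993 ± 274 to 3210 ± 326 CPM (SD, n = 3), a fall that turned into a rise with upper quartile factors.

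The let-7 relatives mir-48, mir-84 and mir-241 act together in the second larval stage to repress hbl-1. mir-48 rose from 20095 ± 1480 to 26045 ± 795 CPM, while mir-241 fell from 894 ± 113 to 457 ± 90.4 CPM and mir-84 from 6852 ± 90.3 to 5703 ± 233 CPM (SD, n = 3), both turning positive with upper quartile factors. Of the 6 timing miRNAs, 2 rose and 4 fell, with a median log2 change of -0.29, and 3 of the falls turned positive with upper quartile factors. Of the 8 let-7 family members 3 rose, 4 fell and 1 did not pass, with a median of -0.24, and here too 3 of the falls turned. Beside both counts, 42.4% of all tested miRNAs rose and 41.7% fell. The family held 4.25% ± 0.135 of the counts in wild type and 3.57% ± 0.118 in alg-1, with an exact permutation p of 0.1, the smallest possible. The other calls in the family were small, with mir-793 at 0.65 (SE 0.12), mir-1821 at 0.35 (SE 0.13) and mir-794 at -0.26 (SE 0.11). The call of mir-794 was lost without wild type replicate 2 (-0.21), wild type replicate 3 (-0.26), alg-1 replicate 2 (-0.26) or alg-1 replicate 3 (-0.22), and with a replicate block (-0.26, adjusted p = 0.054). That of mir-1821 was lost without wild type replicate 2 (0.33), wild type replicate 3 (0.32) or alg-1 replicate 1 (0.27). With upper quartile factors let-7 stayed negative without a call.

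Some families moved as a block, where 42.4% of all tested miRNAs rose and 41.7% fell. The mir-2 family rose in all 4 members, with mir-2 at 0.79, mir-250 at 1.57, mir-43 at 1.92 and mir-797 at 3.66, and a median of 1.74. All 3 entries of the mir-44 family rose, by 0.98 for mir-61 to 2.89 for mir-247. The share of that family went from 10.3% ± 0.480 to 22.1% ± 0.561 of the counts (SD, n = 3). Both mir-75 and mir-79 rose, by 1.18 (SE 0.16) and 0.91 (SE 0.14).

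The mir-64 family was the one listed family in which every tested member fell, although upper quartile factors made mir-229, mir-66 and mir-63 positive. Its share went from 5.44% ± 0.431 to 1.94% ± 0.147 of the counts (SD, n = 3). mir-64 went from 14821, 19921 and 18113 CPM to 4056, 3659 and 4574 CPM (-2.10, SE 0.14) and mir-65 from 13973, 17800 and 16065 CPM to 3425, 3134 and 3814 CPM (-2.21, SE 0.13). Their wild type and alg-1 libraries were wide apart. The other members, mir-66, mir-63 and mir-229, fell by 0.68 to 0.74 on the log2 scale.

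Other families split. Of the 18 families listed, 9 held called members in both directions, or 4 with upper quartile factors, where 42.4% of all tested miRNAs rose and 41.7% fell. Of the 6 tested members of the mir-58 family 1 rose, 3 fell and 2 did not pass. mir-58 rose, while mir-82 fell from 55051 ± 5196 to 17359 ± 1392 CPM (-1.67, SE 0.11), mir-81 from 14348 ± 2266 to 6420 ± 773 CPM (-1.16, SE 0.12) and mir-80 from 45019 ± 9827 to 25534 ± 5827 CPM (SD, n = 3), a fall that turned into a rise of 0.34 on the log2 scale, short of the threshold, with upper quartile factors. Upper quartile factors also ended the call of mir-81, at -0.0022. The summed share of that family, 21.4% ± 0.362 in wild type and 19.9% ± 0.606 in alg-1 (SD, n = 3), was lower in alg-1.

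The mir-51 family, relatives of miR-100 that are needed in embryos for the attachment of the pharynx, rose in 4 of 6 members. Of all tested miRNAs 42.4% rose. mir-52 went from 30419, 25711 and 25848 CPM to 67738, 73451 and 71293 CPM (1.37, SE 0.09), with mir-53 at 1.74, mir-54 at 1.32 and mir-51 at 0.85. The alg-1 libraries of mir-52 were all far above those of wild type. mir-55 was called lower (-0.39, SE 0.14), but its libraries overlapped, it turned positive with upper quartile factors, and its call was lost without wild type replicate 2 (-0.24), without wild type replicate 3 (-0.36), without alg-1 replicate 2 (-0.33) or without alg-1 replicate 3 (-0.32). The family share rose from 6.95% ± 0.481 to 12.4% ± 0.437.

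Closely related small sets split as well. In the mir-72 family, mir-72 rose from 25817 ± 1394 to 63642 ± 4854 CPM (SD, n = 3) and mir-74 by 0.76 (SE 0.12), and the third member did not pass. mir-90 rose by 1.47 (SE 0.11) while mir-50 of the same family fell from 6230 ± 685 to 2638 ± 489 CPM, a call lost with upper quartile factors (-0.08). mir-86 rose from 1598 ± 144 to 3708 ± 132 CPM, while mir-785 fell from 413 ± 12.3 to 77.4 ± 4.99 CPM (-2.42, SE 0.09). mir-232 rose by 1.59 (SE 0.12) and mir-357 fell by 0.95 (SE 0.10) on the log2 scale. mir-251 rose, while mir-252 was called lower (-0.55, SE 0.14) with overlapping libraries. With upper quartile factors mir-357 and mir-252 turned positive. In the mir-87 family mir-233 rose by 1.27 on the log2 scale, mir-87 did not pass, and mir-356 was called lower (-0.38, SE 0.16) with overlapping libraries and turned positive with upper quartile factors. Its call was lost without wild type replicate 2 (-0.26), wild type replicate 3 (-0.33) or alg-1 replicate 3 (-0.25). Neither member of the mir-46 family passed, and mir-49 did not pass beside its relative mir-83. With upper quartile factors both members of the mir-46 family, mir-49, mir-87 and the third member of the mir-72 family were called higher. The filter at 10 CPM instead called both members of the mir-46 family lower, and the 6 libraries alone or removal of the mir-35 family called 1 of them lower. In the mir-238 family 2 of 3 members rose, where 42.4% of all tested miRNAs did.

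**Figure D4:**
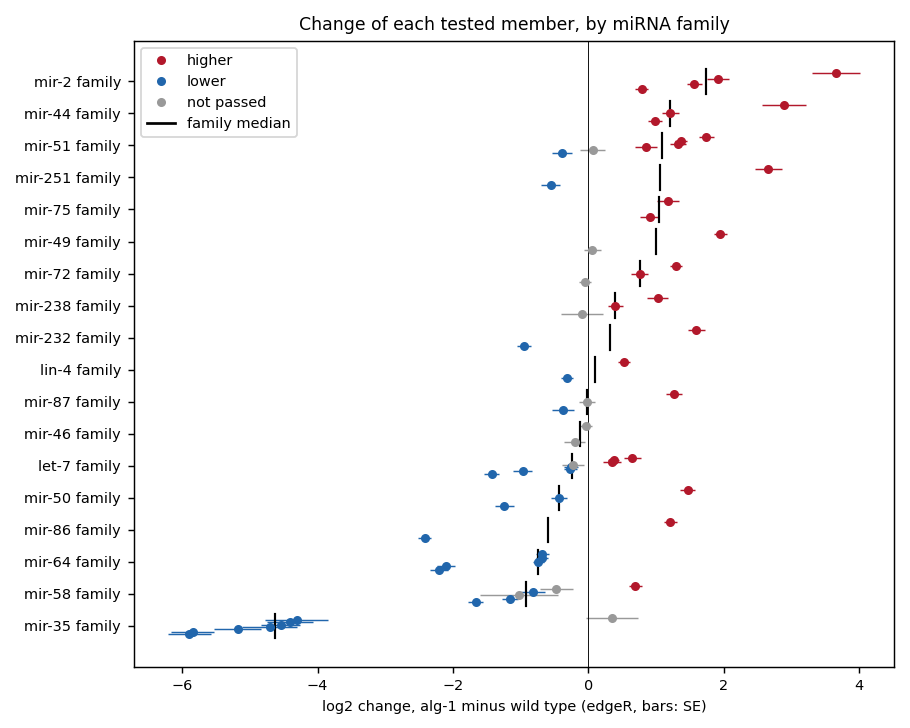
Log2 change (alg-1 minus wild type, edgeR) of every tested member of 18 miRNA families, with bars for the SE and a black line at each family's median. The mir-2, mir-44 and mir-75 families lie wholly to the right of 0 and the mir-64 family wholly to the left (3 of its members turn positive with upper quartile factors), while 9 families (4 with upper quartile factors) have called members on both sides.

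Mirtrons, whose hairpins are cut out by splicing and not by the Drosha enzyme, include mir-62, mir-1018 and mir-1020. mir-1020 was at 83.7, 92.7 and 98.7 CPM in wild type and at 13.6, 12.7 and 10.2 CPM in alg-1, a clear separation with a log2 change of -2.91 (SE 0.14). mir-62 fell from 188 ± 3.56 to 139 ± 18.0 CPM (SD, n = 3). mir-1018, at -0.31 (SE 0.19), did not pass, and it and mir-62 turned positive with upper quartile factors. Of the 3 tested mirtrons 2 fell, where 41.7% of all tested miRNAs did. With upper quartile factors mir-1020 alone fell.

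Among miRNAs linked to ageing and stress, 4 of 7 rose, 1 fell and 2 did not pass, where 42.4% of all tested miRNAs rose. The fall was that of mir-246. mir-34 rose from 780 ± 22.3 to 1021 ± 37.3 CPM (SD, n = 3), mir-238, which is needed for normal lifespan, rose by 0.40 (SE 0.11), and mir-239a, which limits lifespan, rose by 1.03 (SE 0.15). The filter at 10 CPM ended the calls of mir-34 (0.22) and mir-238 (0.22).

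Markers of tissues moved alongside these changes, and the part that tissue make-up plays in the other changes was not tested. All 4 neuron markers rose, where 42.4% of all tested miRNAs did. lsy-6, which sets the left and right fates of a pair of taste neurons, went from 14.4, 16.1 and 16.5 CPM to 37.4, 33.5 and 27.1 CPM, and mir-124 from 10.8, 11.4 and 10.8 CPM to 23.9, 29.5 and 25.7 CPM. mir-791, which acts in neurons that sense carbon dioxide, went from 21.7, 24.3 and 23.9 CPM to 111, 90.7 and 81.1 CPM, and mir-790 rose by 1.07 (SE 0.21). None of these sets of libraries overlapped, as was so for 83.5% of all tested miRNAs. The summed share of the 4 markers was 0.0848% ± 0.00422 in wild type and 0.170% ± 0.0296 in alg-1 (SD, n = 3).

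mir-228, a marker of glia, rose from 5263, 6088 and 5641 CPM to 23392, 21028 and 18997 CPM (1.90, SE 0.13, adjusted p = 4.4e-10). mir-60, the 1 intestine marker listed, rose from 2304, 1819 and 2049 CPM to 3062, 3414 and 3232 CPM. A single marker does not show how other miRNAs of that tissue moved. mir-786, named above for the rhythm of defecation, had a log2 change of -2.62, and its neighbour mir-240 one of -2.65. The muscle marker mir-1 did not pass. The 8 oocyte and embryo markers are the mir-35 family already described, of which 7 fell, where 41.7% of all tested miRNAs did. The defining markers of neurons, glia, muscle and intestine were present in all 6 libraries.

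MiRNA genes that lie within 10 kb of each other on the same strand can share a primary transcript. Of 33 such neighbouring pairs with both members tested, 22 moved in the same direction, 3 in opposite directions, and in 8 at least 1 member did not pass, where 42.4% of all tested miRNAs rose and 41.7% fell. With upper quartile factors these counts were 25, 2 and 6, and the 2 opposite pairs were mir-64 with mir-229 and mir-65 with mir-66. Without the 6 pairs among mir-35 to mir-41, 16 of 27 moved in the same direction. mir-240 and mir-786 had nearly equal log2 changes of -2.65 (SE 0.14) and -2.62 (SE 0.15), and mir-64 and mir-65 fell nearly alike. In other pairs the sizes differed. mir-359 fell by 3.72 and its neighbour mir-785 by 2.42 on the log2 scale, and mir-792 rose by 2.22 next to mir-1821 at 0.35. Over the 33 pairs the median difference between members was 0.78 on the log2 scale and the largest 1.87.

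The pairs that moved apart were mir-48 with mir-241, mir-54 with mir-55, and mir-80 with mir-238. mir-48 rose by 0.37 (SE 0.08) and mir-241 fell by 0.97 (SE 0.14) on the log2 scale. mir-54 rose from 5483 ± 502 to 13706 ± 1142 CPM (SD, n = 3), while mir-55 went from 12759 ± 2717 to 9758 ± 1451 CPM. mir-80 fell by 0.82 (SE 0.17) on the log2 scale and mir-238 rose. With upper quartile factors mir-241, mir-55 and mir-80 turned positive, so that none of these pairs then had opposite signs. In the group of mir-42, mir-43 and mir-44, mir-43 went from 18.2 ± 0.647 to 68.8 ± 9.77 CPM and mir-42 did not pass.

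**Figure D5:**
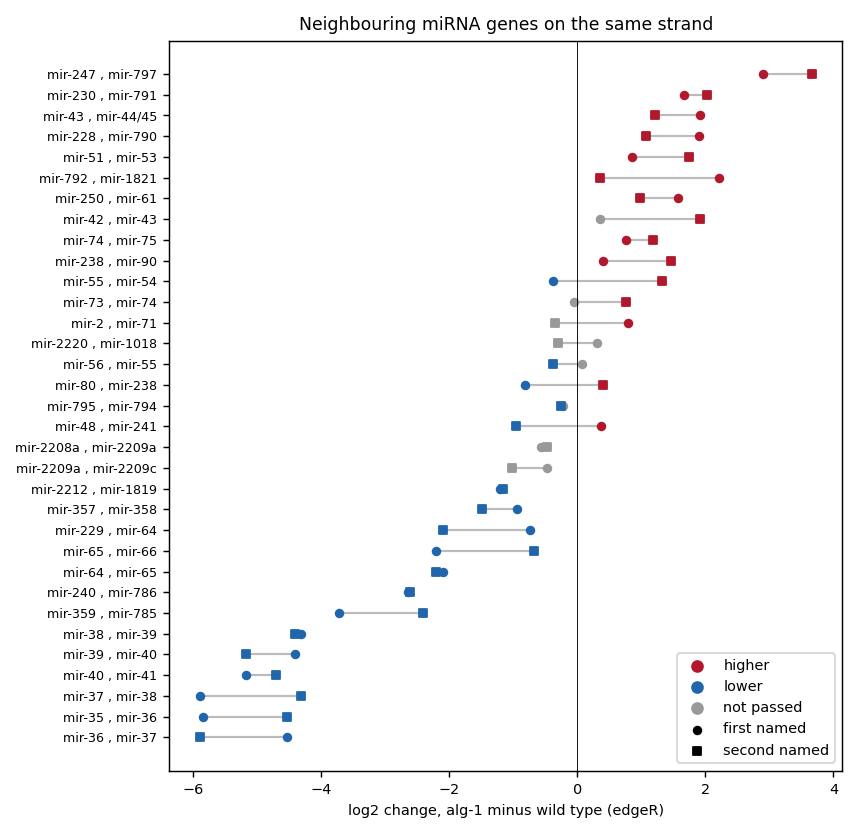
Log2 change (alg-1 minus wild type, edgeR) of both members of 33 pairs of neighbouring miRNA genes, coloured by call and joined by a line. 22 pairs have both members called on the same side of 0 and 3 have them called on opposite sides (25 and a different 2 with upper quartile factors), and the lines reach a length of 1.87.

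A group of 22 miRNAs did not pass, 8 of them with a mean of at least 1000 CPM in wild type. 8 of the 22 had log2 changes between -0.1 and 0.1. Of the 36 miRNAs below the low-count filter, 14 had no count in any library of the study and 22 had a few. None of the 36 had more than 27 counts over the wild type libraries or 38 over the alg-1 libraries, and they were not tested.

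Set directly against alg-2, the mutant of the related Argonaute, alg-1 differed about as widely as from wild type, with the same edgeR test. It called 115 of 139 miRNAs (82.7%), of which 58 were higher in alg-1 than in alg-2 (41.7%) and 57 lower (41%). The alg-2 libraries carry a library name label that the wild type and alg-1 libraries lack, so that a difference of genotype and one of library set cannot be told apart here, which also shares its alg-1 libraries with the one above. Upper quartile factors gave 69 higher and 42 lower.

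The falls outside the mir-35 family stood out against alg-2 too. mir-85 was at 8993, 10519 and 9072 CPM in alg-2, a log2 difference of -5.18 (SE 0.14) for alg-1. mir-246 was at 2855, 3591 and 3220 CPM in alg-2 (-3.97, SE 0.18), mir-1817 at 77.3, 76.2 and 74.0 CPM (-5.83, SE 0.23) and mir-359 at 886, 1282 and 972 CPM (-3.94, SE 0.20). These alg-2 levels were near those of wild type or, for mir-246, somewhat lower. let-7, at 20882, 23670 and 19168 CPM in alg-2, gave a log2 difference of -1.98 (SE 0.11).

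Rises in alg-1 were likewise seen against alg-2, where mir-83 was at 257, 288 and 290 CPM and mir-228 at 8357, 5954 and 7809 CPM. The log2 differences of alg-1 from alg-2 were 1.84 (SE 0.10) and 1.52 (SE 0.13), and that of mir-797 was 3.19 (SE 0.34). All 4 neuron markers were higher in alg-1 than in alg-2, where 41.7% of all tested miRNAs were.

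The mir-35 family was low in both mutants, with 0.431% ± 0.0555 of the counts in alg-2 (SD, n = 3). Of its 8 members 2 were lower in alg-1 than in alg-2, mir-35 (-0.83, SE 0.26) and mir-37 (-1.002, SE 0.26). Of the others 5 did not pass and mir-42 was higher, where 41% of all tested miRNAs were lower and 41.7% higher. mir-42 was at 313, 96.8 and 233 CPM in alg-2, and its log2 difference was 1.82 (SE 0.40, adjusted p = 0.00055). lin-4 and mir-48 did not pass between the mutants, with log2 differences of 0.06 (SE 0.09) and -0.17 (SE 0.08).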

How the data were processed

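Per the labels' protocols, Trizol was used to extract total RNA, and miRNA libraries from the NEBNext kit were selected on a gel at a band of about 140 bp. The submitters' processing notes name Bowtie 0.12.7. In the sources used here, build, annotation and counter are not given. The values the authors deposited are estimated counts for each miRNA, without normalization and partly fractional, so near-identical family members may share reads. Column 5, the sum of columns 3 and 4, was rounded to whole numbers, and mir-44 and mir-45 were summed. edgeR 4.0.16 (TMM, low-count filter, robust quasi-likelihood fit) was run in R 4.3.3 on all 18 libraries with genotype as the term, leaving 12 residual degrees of freedom. The SE comes from the change and its F statistic. The method was tested on simulated data in which most miRNAs were unchanged and rises and falls were balanced. In the real libraries most miRNAs were called, so the simulation does not bear on the choice of scaling.

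No label says whether replicates came from different cultures, and the p-values only reflect the spread between libraries, which may be technical. Every pair of libraries within a genotype differed by more than sampling noise. Members and lists were chosen with earlier results of these data known. MiRNAs named are the 12 largest called rises and falls of at least 10 CPM in a genotype with no overlap, the 10 most abundant of each genotype, members of the lists, and their neighbours, less some for length. The text marks any other as chosen after seeing its values. Neighbours come from the WBcel235 annotation, which matched 165 of 176 names. Alternatives were DESeq2 1.42.0, limma-voom (limma 3.58.1), RLE, upper quartile or no composition factors, a stricter or no low-count filter, smaller sets of libraries, a replicate block, removal of the mir-35 family, and each library left out.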

Additional observations from a re-analysis of the deposited data

How the results depend on the processing

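Against wild type, the other alternatives gave 48 to 94 higher and 25 to 62 lower miRNAs, and leaving out a library 56 to 61 and 54 to 60. Only upper quartile factors moved these counts by over 1.5 times, to 94 and 25. Against alg-2, the other alternatives gave 46 to 69 higher and 42 to 63 lower, and leaving out a library 54 to 60 and 51 to 60. Of the 117 called miRNAs, 113 kept their call and direction with RLE factors or DESeq2, 116 with limma-voom, and 111 to 115 without a single library. Only 84 kept them with upper quartile factors. With the filter at 10 CPM 101 of the 104 still tested did. With a library left out, the share of the mir-35 family differed by -12.8 to -11.9 percentage points and that of the let-7 family by -0.731 to -0.602.

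Of 84 miRNAs followed through the alternatives, those whose log2 change turned sign with upper quartile factors were mir-1 (1.15), mir-1018 (0.84), mir-229 (0.43), mir-237 (0.85), mir-241 (0.19), mir-252 (0.60), mir-356 (0.78), mir-357 (0.21), mir-55 (0.78), mir-62 (0.73), mir-63 (0.49), mir-66 (0.48), mir-71 (0.81), mir-794 (0.91), mir-795 (0.94), mir-80 (0.34) and mir-84 (0.90). Called miRNAs outside these 84 turned too, among them mir-70 (0.57), mir-236 (0.75), mir-254 (0.91), mir-259 (0.56) and mir-787 (0.47). mir-1, near 0, was also at 0.042 with RLE factors, 0.042 with DESeq2 and 0.060 with no low-count filter, and ranged from -0.073 to 0.047 when a library was left out. Among the 84, upper quartile factors also ended the calls of let-7, mir-50, mir-81 and mir-358, all still negative. Among the miRNAs described, RLE factors, DESeq2 or no low-count filter each ended the calls of mir-84, mir-356 and mir-794, and no low-count filter that of mir-55 too. The stricter filter ended those of mir-34, mir-238 and mir-1821, limma-voom that of mir-356, the 12 libraries without a library name label those of mir-356 and mir-794, and that of mir-1821 was also lost with no composition factor, in the 6 libraries alone and without the mir-35 family. All kept their direction. The cause was not tested beyond the shift of the median.

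Replicate numbers are shared between the genotypes, but same-numbered libraries of wild type and alg-1 deviated with correlations of -0.44, -0.21 and -0.02, and none correlated best with its own number. With a replicate block over all libraries 60 miRNAs were higher and 58 lower than in wild type, and 57 and 57 against alg-2, and mir-794 alone of the 117 lost its call. Depth limits miRNAs under about 1 CPM, which rest on a few counts per library.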
